A study of Mus musculus with 12 samples.

Results

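The genes described here are 10 that are expressed across many kinds of leukocyte: Ptprc, Cd52, Cd53, Laptm5, Srgn, Shisa5, Limd2, Coro1a, Cotl1 and Rac2. They were listed by name, and several were put on the list because they were far higher in NOD islets in these same data, so their differences between strains are given as a description and carry no test. The arrays hold 19 non-control probes for them, of 41174 non-control probes and 17016 gene symbols in all. Of these probes 13 passed the filter on dim signal, and 9 of the 10 genes had a probe among them; Cd53 had none.

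Islets were cut by laser from frozen pancreas sections of 6 NOD mice and 6 NOD.B10 mice; each mouse was a female aged 12 weeks. NOD mice develop autoimmune diabetes spontaneously; the labels call the NOD.B10 mice healthy controls, and a NOD.B10 mouse is a NOD congenic that carries a segment of the B10 genome, which the labels do not specify further. Amplified RNA of each mouse, pooled over sections of many islets, was labelled with Cy5 and hybridised with a Cy3-labelled mouse universal RNA to a 2-colour array, 1 array per mouse, with no dye swap and no treatment. Every value below called a log2 ratio is islet signal over that common reference for a probe on an array, after normalisation within the array. Such a value does not give the level of islet RNA against the reference, and 0 does not mean equal amounts. For the brightest Ptprc probe the mean in NOD was 3.69, although its mean signal above local background was 671 scanner units in Cy5 and 1964 in Cy3. Every difference is NOD minus NOD.B10.

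All nucleated blood cells descend from haematopoietic stem cells, and they keep a shared set of surface, granule and cytoskeletal proteins whatever their lineage. A gene of this kind does not by itself separate T cells from B cells or macrophages, and some of the members are also made by other cells, as said at each gene. In NOD mice leukocytes gather around and inside the islets before diabetes begins, a lesion named insulitis. In RNA of whole captured islets, a larger number of leukocytes and more RNA per leukocyte cannot be told apart.

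The promoters of some members are shown because the genes moved together across the mice and genes of blood cells are known to be bound by the ETS factor PU.1, whose sites hold the letters GAGGAA. RefSeq promoter windows of 300 bases (250 before the start of transcription and 50 after it, assembly GRCm38.p6) were matched for 7 of the 10 members. Cotl1, Cd52 and Rac2 were not matched. GAGGAA, searched on both strands and so also read as TTCCTC, lay in the first-listed window of 4 of the 7 genes, namely Ptprc, Cd53, Laptm5 and Shisa5, and in 5 of their 16 windows. It lay in 28.3% of all 32851 windows. A gene can have several windows, so this share and those below compare with the counts over 16 windows. No share over first-listed windows was counted. Below, the windows run in the direction of the gene, in lower case with GAGGAA or TTCCTC in capitals. Ptprc is at chr1:138175256-138175555 (minus strand), Cd53 at chr3:106790100-106790399 (minus strand), Laptm5 at chr4:130913066-130913365 (plus strand) and Coro1a, a window with no match, at chr7:126704767-126705066 (minus strand).
Ptprc: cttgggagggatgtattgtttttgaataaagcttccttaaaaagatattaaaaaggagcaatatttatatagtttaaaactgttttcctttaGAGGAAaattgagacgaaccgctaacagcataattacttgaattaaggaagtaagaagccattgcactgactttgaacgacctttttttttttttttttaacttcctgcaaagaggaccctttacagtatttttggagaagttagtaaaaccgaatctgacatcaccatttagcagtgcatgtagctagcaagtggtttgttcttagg
Cd53: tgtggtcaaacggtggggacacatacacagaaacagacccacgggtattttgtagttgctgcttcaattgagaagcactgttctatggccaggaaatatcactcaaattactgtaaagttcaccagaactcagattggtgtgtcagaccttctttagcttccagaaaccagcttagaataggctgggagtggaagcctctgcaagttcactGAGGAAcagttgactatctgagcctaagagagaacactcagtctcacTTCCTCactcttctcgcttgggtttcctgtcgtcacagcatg
Laptm5: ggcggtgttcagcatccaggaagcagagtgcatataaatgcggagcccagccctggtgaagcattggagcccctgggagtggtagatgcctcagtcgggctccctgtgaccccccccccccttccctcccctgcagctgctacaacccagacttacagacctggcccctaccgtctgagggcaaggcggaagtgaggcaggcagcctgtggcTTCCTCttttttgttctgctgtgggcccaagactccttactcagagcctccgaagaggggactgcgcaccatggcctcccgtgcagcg
Coro1a: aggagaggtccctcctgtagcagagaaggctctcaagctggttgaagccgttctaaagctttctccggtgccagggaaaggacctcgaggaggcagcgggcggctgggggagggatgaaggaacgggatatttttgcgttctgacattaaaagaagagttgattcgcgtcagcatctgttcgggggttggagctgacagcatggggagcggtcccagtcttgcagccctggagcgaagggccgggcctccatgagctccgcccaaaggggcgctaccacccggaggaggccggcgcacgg
The match in Ptprc began 158 bases before the start of transcription. In Cd53 there were 2 matches, of which the upstream one began 39 bases before the start, and in Laptm5 the match began 38 bases before it. TATAAA lay in the first-listed windows of 3 of the 7 genes (Ptprc, Laptm5 and Srgn), in 3 of their 16 windows and in 13.6% of all windows. The RUNX core TGTGGT lay in 2 of the 7 first-listed windows (Cd53 and Limd2), in 6 of the 16 and in 16.8% of all windows. An interferon response element, GAAA repeated after any 2 bases, lay in 0 of the 7 first-listed windows, in 2 of the 16 and in 3.44% of all windows. A match of this kind describes letters only, and no binding was measured.

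The arrays differed in brightness in step with strain. Cy5 was well above background for 10.7% to 17.3% of non-control spots on NOD arrays and for 3.96% to 7.88% on NOD.B10 arrays, while Cy3 was so for 46.7% to 54.4% over all 12. For the 1083 probes bright in Cy5 on every array, the net Cy5 signal (signal minus local background, in scanner units) was higher in NOD by a median of 1.65 on the log2 scale. The normalised log2 ratios had a median difference of -0.01 over the 3920 genes tested. As a check of the tissue, 15 of 18 endocrine markers could be tested, Ins1 and Ins2 being well above background on every array, while Pdx1, Mafa and Scg2 were so on no array. The arrays lay on 4 slides: slide 1 held NOD mice only and slide 4 NOD.B10 mice only, while slides 2 and 3 had 2 NOD and 2 NOD.B10 mice apiece. Brightness differs with strain, and its part in the results was not tested beyond the fit with it as a covariate given below.

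Among the surface proteins, Ptprc encodes CD45, the receptor tyrosine phosphatase found on all nucleated blood cells, which sets the activity of Src-family kinases (gene at chr1:138062859-138175756, GRCm38.p6). Its brightest probe had log2 ratios of 2.51, 4.00 and 4.76 (lowest, median and highest) in the NOD mice, against -0.48, -0.41 and -0.29 in the NOD.B10 mice. The net Cy5 signal was 195, 604 and 1536 scanner units in the NOD mice, against 0.10, 1.78 and 4.50 in the NOD.B10 mice. Every NOD mouse lay above every NOD.B10 mouse, and the NOD.B10 signal was not well above background on any array. The difference was 4.09 ± 0.39 (SE, n = 6 each). Measured against the signal a NOD.B10 array could resolve, Ptprc was at least 10.3-fold higher in NOD islets after the normalisation used here. The floor, used for every lower bound here, is the 10th percentile of Cy5 signals well above background on an array. These Cy5 signals are taken after loess and scaling between arrays, and a bound does not hold under every other processing. With Cy5 alone, normalised by quantiles, the Ptprc difference was 2.45 on the log2 scale, which is less than the bound.

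Cd52 encodes a small glycoprotein held by a lipid anchor on lymphocytes and some other leukocytes (chr4:134093538-134095073). Its only probe gave log2 ratios of 0.90, 2.44 and 3.93 in the NOD mice, against -0.46, -0.22 and -0.15 in the NOD.B10 mice. The groups did not overlap, and the spread among the NOD mice was wide. The difference was 2.59 ± 0.43 (SE, n = 6 each), or at least 4.32-fold, since no NOD.B10 array was well above background. Cd53, a leukocyte member of the tetraspanin family of membrane organisers (chr3:106758861-106790149), was well above background on 2 arrays, those of NOD mice 2 and 4. Its log2 ratios were -0.09, 0.15 and 0.36 in the NOD mice, against -0.24, -0.05 and 0.03 in the NOD.B10 mice. The strains overlapped for Cd53. With a difference of 0.22 ± 0.08 (SE, n = 6 each) it did not pass the filter, was not tested and is given no fold.

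Of the granule and lysosome proteins, Srgn encodes serglycin, the proteoglycan core that packs proteases in secretory granules of blood cells and that endothelial cells also make (chr10:62493833-62527445). The log2 ratios of Srgn were 2.21, 3.66 and 4.43 in the NOD mice, against -0.49, -0.18 and 0.30 in the NOD.B10 mice. Net Cy5 was 272, 914 and 1586 scanner units in the NOD mice, against 8.50, 13.0 and 41.5 in the NOD.B10 mice. Srgn was well above background on all 12 arrays, so its difference is given as a fold, 11.8 (3.56 ± 0.36 on the log2 scale, SE, n = 6 each). This is not a ratio of net signals. A constant of 50 was added to every background-corrected signal. It exceeded the net Cy5 of every NOD.B10 mouse for Srgn, Shisa5, Limd2 and Cotl1, so the folds of these genes depend on it. Laptm5 encodes a lysosomal membrane protein that lowers antigen receptor levels on T and B cells (chr4:130912890-130936148). Its log2 ratios were 0.04, 1.47 and 1.97 in the NOD mice, against -0.28, -0.04 and 0.19 in the NOD.B10 mice. The lowest NOD mouse, NOD 5, lay inside the NOD.B10 range, and Laptm5 was the tested member whose strains overlapped. The difference was 1.36 ± 0.30 (SE, n = 6 each), or at least 1.70-fold.

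Shisa5 encodes Scotin, a protein of the endoplasmic reticulum and nuclear envelope that takes part in p53-dependent cell death and is not restricted to leukocytes (chr9:109038567-109057792). Its brightest probe had log2 ratios of 3.35, 4.82 and 5.49 in the NOD mice, against 0.28, 0.43 and 0.58 in the NOD.B10 mice. Net Cy5 was 504, 1449 and 3036 scanner units in the NOD mice, against 22, 37.5 and 42 in the NOD.B10 mice. Both strains were well above background on every array, and the difference was 17.9-fold (4.16 ± 0.33 on the log2 scale, SE, n = 6 each). Limd2 encodes a small LIM-domain protein (chr11:106156254-106160729). For this gene the log2 ratios were 1.51, 4.17 and 4.61 in the NOD mice, against -0.32, 0.05 and 0.72 in the NOD.B10 mice. The NOD 5 mouse stood far below the other NOD mice, whose lowest value was 3.13, but still above every NOD.B10 mouse. The difference was 11.5-fold (3.52 ± 0.51 on the log2 scale, SE, n = 6 each), with the largest SD among the NOD mice of any tested member, 1.18.

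The remaining members act on the actin cytoskeleton. Coro1a encodes coronin 1A, an actin-binding protein that T cells need for survival and migration (chr7:126699774-126704816). Log2 ratios of Coro1a were 0.57, 1.52 and 2.61 in the NOD mice, against -0.29, -0.16 and 0.06 in the NOD.B10 mice. The groups did not overlap, yet the dim signal bounds the difference weakly: 1.63 ± 0.30 on the log2 scale (SE, n = 6 each), at least 1.40-fold, or 2.37-fold with the lowest bright signal of each array as the floor. Cotl1 encodes coactosin-like protein, which binds filamentous actin and 5-lipoxygenase in many tissues (chr8:119809214-119840579). Cotl1 had log2 ratios of 0.85, 2.22 and 2.64 in the NOD mice, against -0.13, 0.07 and 0.40 in the NOD.B10 mice. This was a 3.80-fold difference (1.93 ± 0.29 on the log2 scale, SE, n = 6 each). Rac2 encodes a small GTPase of blood cells that drives actin assembly and the phagocyte NADPH oxidase (chr15:78559169-78572783). Its log2 ratios were 0.61, 1.81 and 2.83 in the NOD mice, against -0.37, -0.15 and -0.02 in the NOD.B10 mice. No overlap was seen for Cotl1 or Rac2. The Rac2 difference was 1.87 ± 0.32 (SE, n = 6 each), or at least 2.89-fold.

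**Figure D1:**
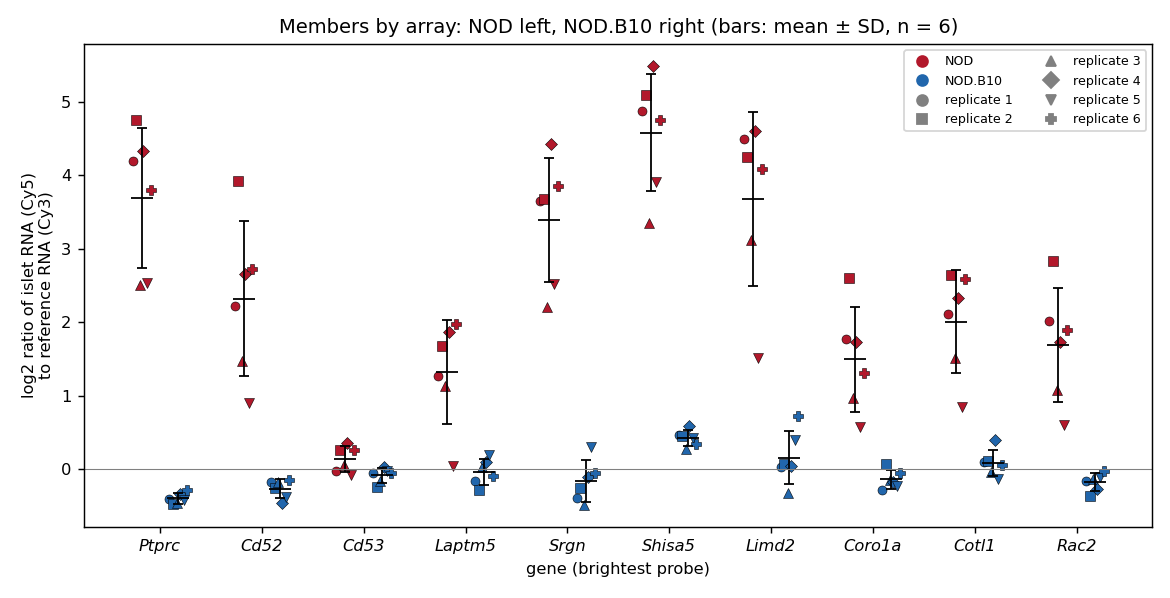
Normalised log2 ratio of islet RNA to reference RNA for the brightest probe of each member, with NOD mice left of NOD.B10 mice, a symbol per replicate and the mean ± SD (n = 6). NOD.B10 values lie in a narrow band near 0 for all genes, with SDs of 0.073 to 0.36 for the 9 tested members, whereas NOD values spread with SDs of 0.70 to 1.18.

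Counted together, 8 of the 9 tested members had every NOD mouse above every NOD.B10 mouse, where 9.52% of all genes tested did, and 0 had every NOD mouse below every NOD.B10 mouse, where 7.42% of all genes tested did. The strain fit called all 9 higher in NOD and called 18.8% of all genes tested so; as these differences helped choose the members, nothing is read from either count. Cy5 was well above background on all 6 NOD arrays for 8 of the 9 (60.1% of all genes tested) and for Laptm5 on 5 of them. In the NOD.B10 mice the members fell into clear classes. Srgn, Limd2, Shisa5 and Cotl1 were well above background on all 6 NOD.B10 arrays, and Ptprc, Coro1a, Laptm5, Cd52 and Rac2 on none, as were 31.1% of all genes tested. For these last 5 the size of the difference is given only as a lower bound, and only for the normalisation used here. The median difference of the 9 was 2.59, against -0.01 for all genes tested.

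The reference channel, which holds the same RNA on every array, was compared for the same spots. Net Cy3 of the Ptprc probe had a median of 2027 scanner units on the NOD arrays and 1918 on the NOD.B10 arrays, and its ranges overlapped, 1510 to 2232 on NOD arrays against 1539 to 2173 on NOD.B10 arrays. Medians of the Shisa5 probe were 5507 on NOD arrays and 5415 on NOD.B10 arrays. These are signals before normalisation. After loess and scaling between arrays, which adjust both channels, the Cy3 signal was lower in NOD for all 9 tested members, with log2 differences of -0.07 to -0.78, among them -0.72 for Ptprc and -0.78 for Shisa5. The printed log2 differences hold this Cy3 difference as well as that of Cy5. The lower bounds use the Cy5 signal after the same steps, which draw on both channels. In the signals before normalisation, single arrays or slides stood apart. On the NOD 2 array Rac2 had a net Cy3 of 460, against 848 to 994 on the other NOD arrays, and Cd52 had 789, against 1210 to 1342. NOD 2 was also the mouse with the highest log2 ratio of both genes. For Laptm5, net Cy3 was 254 to 295 on the NOD arrays, against 187 to 245 on 4 of the NOD.B10 arrays and 104 and 113 on the other 2, those of slide 4.

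Different probes of a gene did not give the same difference. Of the 7 genes with more than 1 probe, Laptm5 had the closest pair, with differences of 1.36 and 1.18. Rac2 gave 1.87 and 0.88, and Cotl1 gave 1.93 and 0.56. The second Cotl1 probe was well above background on all 12 arrays and its strains overlapped, with log2 ratios of 1.28 to 1.63 in the NOD mice against 0.22 to 1.61 in the NOD.B10 mice. Among the NOD.B10 mice its values were highest, 1.61 and 1.13, in the 2 of slide 4. Shisa5 had a probe with a difference of 4.16, another with 0.60 that was bright on 5 NOD arrays and 0 NOD.B10 arrays, and a further one with -0.04. The other 2 probes of Ptprc gave 0.06 and -0.02, that of Limd2 gave -0.00 and that of Coro1a gave -0.01.

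The probes with differences near 0 were dim in both channels. The 5 probes whose Cy5 was well above background on no array had mean net Cy3 signals of 2.25 to 19.3 scanner units with the reference RNA too, and Cy3 was well above background on 0 to 8 of the 12 arrays. The remaining 14 probes had mean net Cy3 signals of 32.4 to 6275 and were well above background in Cy3 on every array. No strain difference of the transcript can be read from probes that are dim with both RNAs. The Shisa5 pair and the Cotl1 pair are different, because both probes of each pair responded to the reference RNA. Which exons or transcript ends the probes target was not analysed here.

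**Figure D2:**
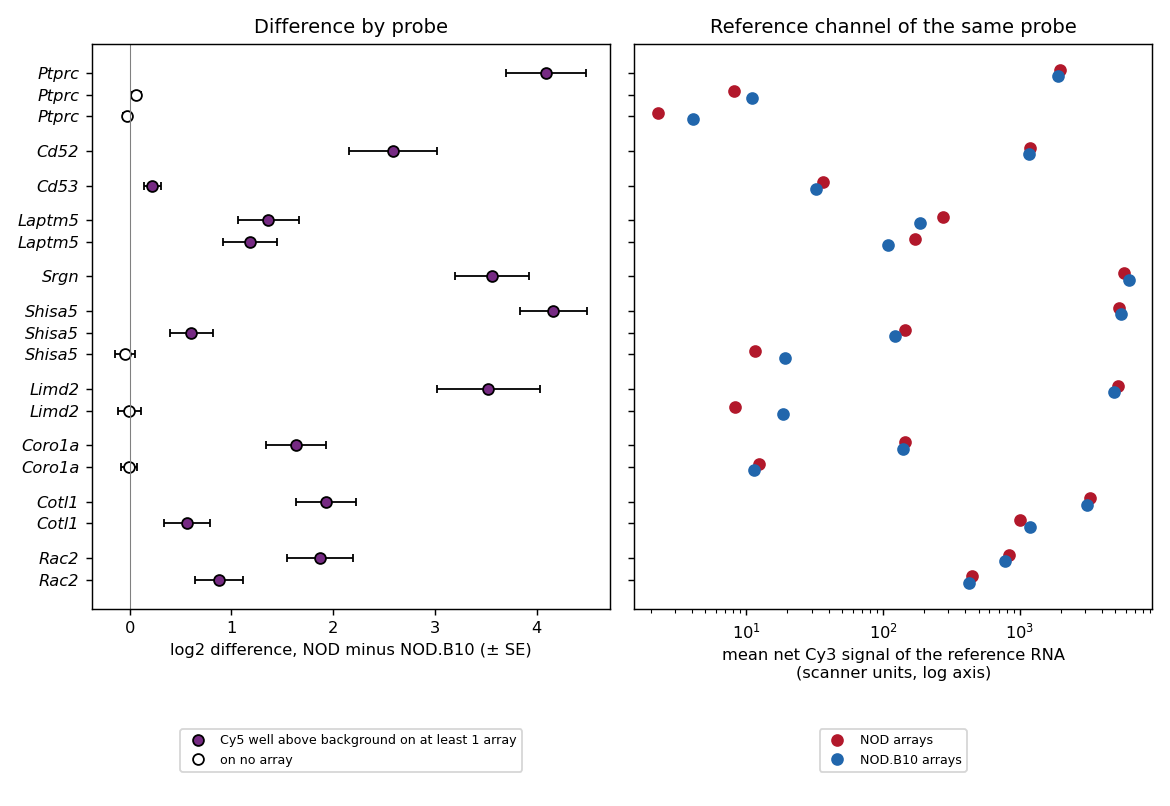
Left, difference in log2 ratio between NOD and NOD.B10 (± SE, n = 6 each) for all 19 probes, grouped by gene, with open circles for the 5 probes whose Cy5 was well above background on no array. Right, mean net Cy3 signal of the same probes on NOD and NOD.B10 arrays on a log axis, where the 5 open-circle probes lie at 2.25 to 19.3 scanner units and the other 14 at 32.4 to 6275.

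The tested members shared their lowest pair of NOD mice, while the order of the other NOD mice varied between genes. NOD 3 and NOD 5 were the lowest 2 of the 6 NOD mice for 9 of the 9 tested members, NOD 5 being lowest for 6 of them and NOD 3 for Ptprc, Srgn and Shisa5. NOD 2 was highest for 5 members, NOD 4 for Srgn, Limd2 and Shisa5, and NOD 6 for Laptm5. Averaged over the 9 members, the log2 ratio was 1.49 in NOD 5 and 1.93 in NOD 3, and between 2.96 and 3.50 in the other 4 NOD mice. In the NOD.B10 mice the same average ran from -0.16 to 0.05. All 9 members had a larger SD in the NOD mice than in the NOD.B10 mice, where 5 of them had no signal above background that could vary.

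Markers of single leukocyte lineages had the same low mice. The mean log2 ratio of 7 tested T cell markers was 0.48 in NOD 5 and 0.50 in NOD 3, and 1.04 to 1.93 in the other NOD mice. For 9 B and plasma cell markers it was 0.71 in NOD 5 and 0.93 in NOD 3, and 1.81 to 2.21 in the others. Macrophage and dendritic cell markers (11 tested) were at 0.80 in NOD 5 and 1.04 in NOD 3, and at 1.31 to 1.70 in the others. NK and cytotoxic markers (4 tested) were at 0.65 in NOD 5 and 0.78 in NOD 3, and at 1.68 to 2.35 in the others. The mean of 15 endocrine markers, in contrast, was highest in NOD 3 at 6.04, and NOD 5 with 4.68 lay among the other NOD mice, which had 3.83 to 4.74. NOD 5 and NOD 3 were also the NOD arrays with the lowest shares of spots well above background in Cy5, 10.7% and 12.4%, next to 12.9% for NOD 4. The part of brightness in these low values was not tested.

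**Figure D3:**
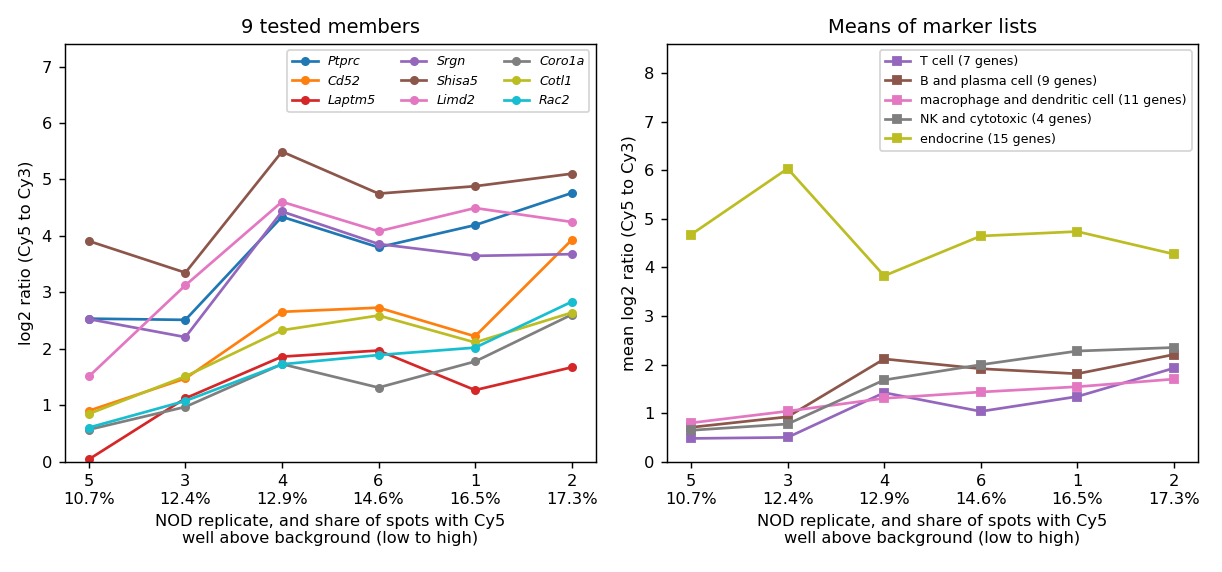
Log2 ratios of the 9 tested members (left) and mean log2 ratios of marker lists (right) in the 6 NOD mice, ordered by the share of spots with Cy5 well above background. NOD 5 and NOD 3 are the lowest 2 for every member and for the 4 leukocyte marker lists, while the endocrine mean is highest in NOD 3 at 6.04; lines join points of a gene or list only as a guide.

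Across strains the same lists moved as follows, with limma's adjusted p under 0.05 as the threshold. T cell markers were higher in NOD for 5 of 7 tested (median difference 0.84), and 7 of the 16 on the array, Cd3e, Cd3g and Cd4 among them, were well above background on no array. B and plasma cell markers were higher for 8 of 9 tested (median 1.18), macrophage and dendritic cell markers for 8 of 11 (0.99) and NK and cytotoxic markers for 4 of 4 (1.94). None of these 4 lists had a member that was lower, where 18.8% of all genes tested were higher and 18.1% lower. The filter shapes these counts, since markers dim in NOD.B10 passed it through the NOD mice. No NOD.B10 array was well above background for 6 of the 7 tested T cell genes and 9 of 9 B list genes. The same held for 4 of 4 NK list genes and 4 of 11 macrophage list genes. Dim in Cy5 on every array were 5 of 16 B, 8 of 22 macrophage and 6 of 12 NK list genes. Of the neutrophil markers 1 of 7 on the array was tested, S100a9, and its normalised log2 ratio fell by 2.04. Both tested platelet markers, Pf4 and Ppbp, were lower as well on this scale. Before normalisation, mean net Cy5 was higher in NOD for each of them. It was 42.9 scanner units in NOD against 27.5 in NOD.B10 for S100a9, 13.3 against 3.50 for Pf4 and 11.6 against 4.08 for Ppbp. A fall of their RNA is therefore not read from these values. Endocrine markers were lower for 6 of 15 (median -0.53) and acinar markers for 5 of 8 (median -2.86). Before normalisation, mean net Cy5 was higher in NOD for Ins1, Gcg, Chga and Pcsk2 among these 6, and lower for Ins2 and Slc2a2. For Gcg it was 28080 scanner units in NOD against 12412 in NOD.B10, and for Ins1 1662 against 1606. Where net Cy5 was higher in NOD, a fall is again not read. For the acinar markers that were lower, mean net Cy5 was lower in NOD as well. Over acinar markers the mean log2 ratio ran from -2.55 to 1.42 in the NOD mice, against -0.15 to 5.58 in the NOD.B10 mice. Mesenchymal markers were higher for 2 of 9, Dcn (1.26) and Thy1 (2.65), and lower for 1, Col1a1 (-0.85). Mean net Cy5 of Col1a1 was higher in NOD (120 scanner units against 26.5 in NOD.B10), so no fall is read. No endothelial (4 tested), erythroid (1) or ductal (1) marker passed the threshold. The part of exocrine RNA, platelets or other cells in the members' differences was not tested.

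Other genes known from leukocytes in general were read from a list of 70 that excludes the members. Of 67 on the array, 26 were well above background on no array and 33 could be tested. Of these, 31 were higher in NOD, where 18.8% of all genes tested were, and 0 were lower, where 18.1% of all genes tested were. The median difference was 1.11. The filter shapes this count: 30 of the 33 had no NOD.B10 array with Cy5 well above background and so passed it through the NOD mice. The 2 tested genes that did not pass the threshold, named after their values were seen, were Prkcb, a protein kinase C (0.13, limma adjusted p = 0.368), and Cd47, which signals to phagocytes not to engulf a cell and is made by most tissues (0.08, limma adjusted p = 0.564).

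The 6 with the smallest p were Ptpn22, Cytip, Arhgap15, Gmfg, Snx20 and Arhgdib. Ptpn22, a phosphatase that dampens T cell receptor signalling, had log2 ratios of 1.17, 3.31 and 3.62 (lowest, median and highest) in the NOD mice, against -0.36, -0.24 and -0.02 in the NOD.B10 mice. It rose by 3.15 ± 0.33 (SE, n = 6 each, limma adjusted p = 4e-05), at least 5.42-fold. Arhgap15, which switches off Rac proteins, had log2 ratios of 1.00, 3.34 and 4.12 in the NOD mice, against -0.29, 0.00 and 0.32 in the NOD.B10 mice (difference 3.08 ± 0.41, limma adjusted p = 0.00018). Arhgdib, which holds Rac proteins in the cytosol of blood cells, rose by 2.53 ± 0.38 (limma adjusted p = 0.00038), at least 4.45-fold. Gmfg, a regulator of branched actin, rose by 2.42 ± 0.33 (limma adjusted p = 0.00019). Arhgap15 and Gmfg were well above background on 1 NOD.B10 array each, so that no fold is given for them. Cytip, which binds cytohesin and loosens leukocyte adhesion, rose by 2.06 ± 0.26 (limma adjusted p = 0.00012), at least 2.55-fold. Snx20, which binds the selectin ligand PSGL-1, rose by 1.15 ± 0.17 (limma adjusted p = 0.00035), at least 1.53-fold. These bounds hold only for the normalisation used here. With Cy5 alone the differences lay below them, at 1.54 (Ptpn22), 1.69 (Arhgdib), 0.86 (Cytip) and 0.44 (Snx20) on the log2 scale, relative to the median of all genes. With the share of bright spots as a covariate none of the 6 passed the threshold (limma adjusted p of 0.541 to 0.825). In each of these 6 genes every NOD mouse lay above every NOD.B10 mouse, where 9.52% of all genes tested did. The 6 were picked for small p in these same arrays, so nothing is read from this separation.

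Relatives of the members by family or role that are not restricted to leukocytes formed a list of 41. Of 40 on the array, 20 could be tested; 3 were higher in NOD, where 18.8% of all genes tested were, and 5 were lower, where 18.1% of all genes tested were, and the median difference was -0.08. Rac1, the Rac protein made in most tissues, had log2 ratios of -0.46, -0.22 and 0.19 in the NOD mice, against -0.19, -0.07 and 0.08 in the NOD.B10 mice, a difference of -0.12 ± 0.12 (SE, n = 6 each, limma adjusted p = 0.427). Laptm4a, the widely made lysosomal relative of Laptm5, differed by -0.09 ± 0.19 (limma adjusted p = 0.752). The coronins Coro1b and Coro1c and the islet receptor phosphatase Ptprn were well above background on no array and in Cy3 on 2, 0 and 1 of the 12, so no level is given for them.

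Those that were higher were Cfl1, Dcn and Cdc42. Cfl1 encodes cofilin, which severs actin filaments, and had log2 ratios of 1.81, 2.39 and 2.60 in the NOD mice, against 0.63, 1.31 and 1.62 in the NOD.B10 mice. It rose 2.16-fold (1.11 ± 0.19 on the log2 scale, limma adjusted p = 0.00087), but on the scanner's own ratios its difference lay -0.12 from the median of all genes. Dcn, the matrix proteoglycan decorin of fibroblasts and also on the mesenchymal list, rose 2.40-fold (limma adjusted p = 0.0056), and Cdc42, a small GTPase of most cells, rose 1.74-fold (limma adjusted p = 0.0086). The receptor phosphatase Ptprf fell by 0.94 on the log2 scale (limma adjusted p = 0.010) and the tetraspanin Tspan7 fell by 0.83 (limma adjusted p = 0.0042). Tspan3 fell by 0.68 (limma adjusted p = 0.0028), although under median centring its difference was 0.06 above the median of all genes. The actin-binding Lima1 fell by 0.34 (limma adjusted p = 0.017). Cd24a, a small anchored glycoprotein of B cells and epithelia, fell by 0.37 (limma adjusted p = 0.028), but lay 0.79 above the median of all genes on the scanner's ratios and 0.04 above it on Cy5 alone. Before normalisation, mean net Cy5 was higher in NOD for each of the relatives that fell. With slide as a fixed term, Dcn (1.12, limma adjusted p = 0.074), Cdc42 (0.64, limma adjusted p = 0.125), Lima1 (-0.34, limma adjusted p = 0.055) and Cd24a (-0.15, limma adjusted p = 0.393) no longer passed the threshold.

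**Figure D4:**
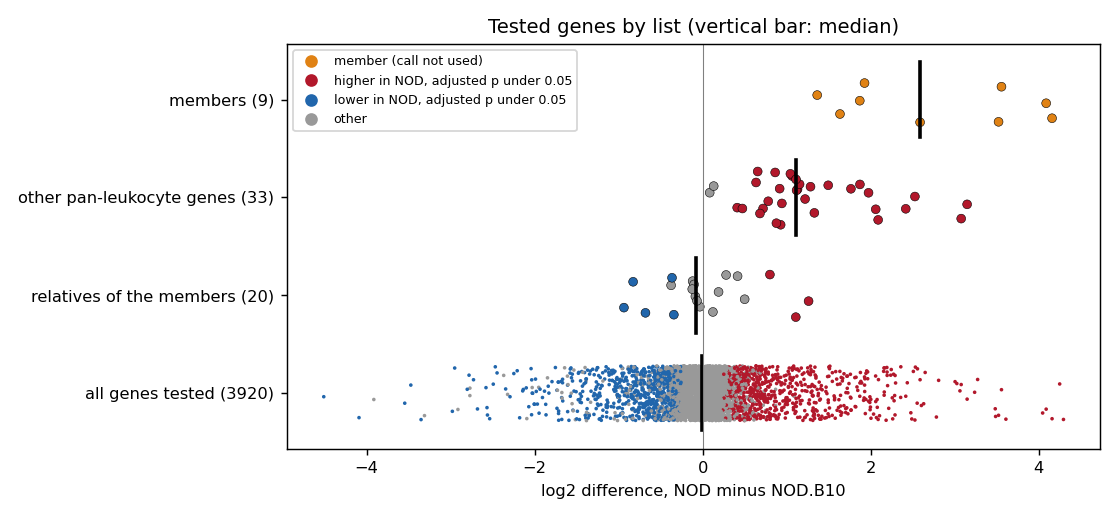
Log2 difference between NOD and NOD.B10 for each tested gene, by list, with the median as a vertical bar: 2.59 for the 9 members, 1.11 for the 33 other pan-leukocyte genes, -0.08 for the 20 relatives and -0.01 for all 3920 genes. Red and blue mark genes higher or lower in NOD at limma's adjusted p under 0.05; members are in orange because their call is not used.

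Genes whose log2 ratios followed the members most closely over the 12 arrays were taken by the mean absolute difference between profiles, each centred on its own mean. This measure rests on the strain difference as well as on the order of mice within a strain. Closest to the mean of the 9 tested members were Pou2af1, a coactivator of B cells, at 0.18 log2 units, the chemokine Ccl5 at 0.22, Gmfg at 0.24, Mfge8 at 0.25 and St8sia4 at 0.26. Pou2af1 had log2 ratios of 1.39, 2.62 and 3.41 in the NOD mice, against -0.54, -0.40 and -0.09 in the NOD.B10 mice. Closest to Ptprc alone were the lysosomal protease Ctss at 0.26, Ms4a4b of T cells at 0.33, Jchain of plasma cells at 0.42, B2m, which pairs with MHC class I chains, at 0.42, and CD20 of B cells (Ms4a1) at 0.43. Genes of several lineages thus stand among the nearest profiles to Ptprc, and none of these distances was tested.

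Processing moved the size of the members' differences. With slide as a fixed term they ran from 1.24 (Laptm5) to 3.92 (Shisa5) for the 9 tested members. Within slide 2, the 2 NOD mice lay above the 2 NOD.B10 mice for 9 of 9 members, with differences of 1.53 to 3.90. Within slide 3 they did so for 8 of 9, Laptm5 being the exception, with differences of 0.96 to 3.95. The share of all genes doing so within a slide was not counted. As differences over these same arrays helped choose the members, nothing is read from the counts within slides. With Cy5 alone, normalised by quantiles, the differences relative to the median of all genes were 0.51 to 2.45, more than 1.5 times smaller than the reported ones for all 9. For Ptprc, Cd52, Laptm5 and Rac2 they lay below the lower bounds given above, at 2.45, 1.44, 0.51 and 0.95 on the log2 scale. With the share of bright spots of each array as a covariate they were 3.06 for Shisa5, 2.48 for Srgn, 2.31 for Ptprc and 1.59 for Limd2, and 0.18 to 0.71 for the other 5. This covariate is tied to strain, since every NOD array was brighter than every NOD.B10 array, so the fit compares strains across shares that do not overlap.

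**Figure D5:**
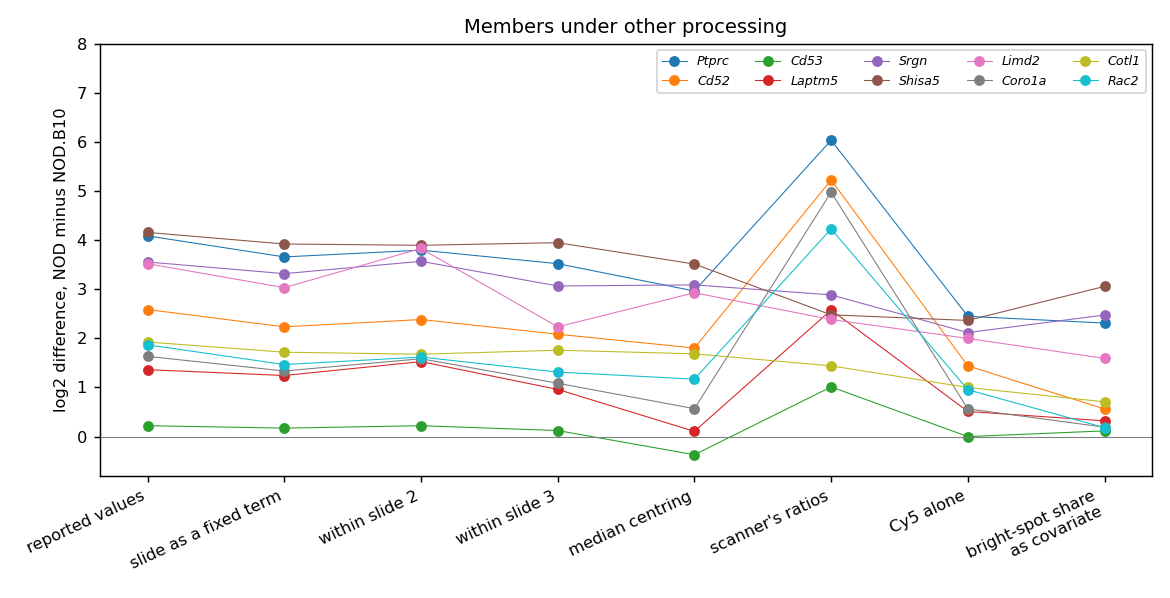
Log2 difference between NOD and NOD.B10 of the 10 members as reported and under 7 other ways of processing, with values under the 3 other normalisations given relative to the median of all genes. The 9 tested members stay above 0 throughout, from 0.11 (Laptm5, median centring) to 6.04 (Ptprc, scanner's ratios), while Cd53 is at -0.37 under median centring and at -0.00 with Cy5 alone.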

How the data were processed

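The members and gene lists were chosen with earlier results of these data known. Median signal and background intensity values per spot were deposited as scanner output without normalisation (Feature Extraction 10.5.1.1, from the file headers); median signals were used because the files hold no mean signals. The deposited log10 ratio of processed Cy5 over Cy3 is background-corrected and dye-normalised per the file headers, and a spot unusable in both channels has a ratio of 0. In the deposited series table the values are log2 of this processed ratio, not centred further: 100% of 40929 probes per array agreed within 0.01, with medians of -0.062 to -0.285, and it served only for this check; its scale and direction are not stated in the labels.

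Signals were corrected in limma 3.58.1 (R 4.3.3) with normexp (offset 50) and loess within arrays, with control spots at weight 0. Spots marked as outliers, 160 to 250 per array, were left out where another spot of the probe remained; no spot was saturated. Accessions gave 24375 probes 1 gene symbol of RefSeq's GRCm38.p6 table and 16799 none. A probe was tested if its Cy5 passed the scanner's well-above-background mark on 4 or more of 12 arrays, and the brightest passing probe stood for a gene (3920 genes). Strains were compared with lmFit and eBayes, with Benjamini-Hochberg adjustment over these genes and a threshold of 0.05. A lower bound sets each NOD.B10 array's Cy5 signal, after loess and scaling between arrays, at no less than its 10th percentile of bright signals. The number of arrays and their signal over background limit the precision.

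Named are all members, the 6 other pan-leukocyte genes with the smallest p, the relatives past the threshold with 5 chosen ones, and the 5 genes nearest in profile to the members and to Ptprc. Same-numbered mice of the strains were not treated as pairs: the correlations of their deviations ran from -0.147 to 0.212.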

Additional observations from a re-analysis of the deposited data

How the results depend on the processing

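The 9 tested members kept a positive difference under every setting that gave them a value (the net ratio gave one for 4 of them). Cd53 reversed to -0.37 with median centring and to -0.00057 with Cy5 alone, both relative to the median of all genes, which shifted by 0.44 with median centring, 0.48 with the scanner's ratios and 0.09 with Cy5 alone. The cause of these and the following moves was not tested, except that fewer genes or arrays enter some fits. Reported counts were 736 genes higher and 709 lower in NOD, 31 other pan-leukocyte genes higher and 0 lower, and 3 relatives higher and 5 lower. With median centring 1980 genes were higher and 0 lower (2 by limma's unadjusted p under 0.05; 11 relatives higher, 0 lower), the scanner's ratios 1094 higher and 313 lower (3 relatives lower), and Cy5 alone 878 higher and 247 lower (5 relatives higher, 3 lower). The net ratio of the 834 genes bright on every array gave 135 higher and 262 lower (3 relatives lower), and it left 0 of the other pan-leukocyte genes to test. A filter of at least 6 arrays left 20 of these, 19 of them higher, and no filter gave 691 higher and 1392 lower over 17016 genes. Slide as a fixed term gave 361 higher and 354 lower (2 relatives higher, 3 lower), and 22 of the 31 other pan-leukocyte genes were still higher. Within slide 2, limma called 38 higher and 46 lower (2 other pan-leukocyte genes, 0 relatives either way). Within slide 3 it called 1 higher and 1 lower (0 other pan-leukocyte genes, 13 at an unadjusted p under 0.05; 0 relatives). The share of bright spots as a covariate left 3 higher and 0 lower (156 and 138 at an unadjusted p under 0.05), 0 other pan-leukocyte genes (1 unadjusted) and 0 relatives either way. Relative to the median of all genes, 25 of the 31 were positive with median centring, and all 31 both on the scanner's ratios and on Cy5 alone. With the share of bright spots as a covariate, 19 of the 31 had a positive difference. Array weights gave 5 relatives higher. The replicate block gave 638 higher, 597 lower and 3 relatives lower; the numbers share no stated litter or day, and 2 of 6 mice matched their own number best. Leaving out each mouse in turn gave 602 to 851 higher, 577 to 808 lower, 29 to 31 other pan-leukocyte genes higher, and 5 relatives higher without NOD 3 or without NOD 5. Taking the median over passing probes moved Shisa5 to 2.38, and the slide as a random block had a correlation of 0.0634.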
